A study of Homo sapiens with 12 samples.

Results

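Transcript levels of 8 genes of the RET receptor system were followed through RET inhibition in 2 cancer cell lines. The genes were the receptor tyrosine kinase RET, its fusion partner CCDC6, the co-receptors GFRA1, GFRA2 and GFRA3, and the ligands GDNF, NRTN and ARTN. They were listed by name, by a rule that uses no measured value, though with earlier results of these data known, and all 8 were found among the 37247 Ensembl genes of the deposited tables. LC-2/ad is a lung adenocarcinoma line and TPC-1 a papillary thyroid carcinoma line, and both are established lines known to carry a CCDC6::RET fusion. Each was sequenced as parent cells, whose treatment is labelled none with no mention of solvent, and after 48 h in selpercatinib at 100 nM, an inhibitor of the RET kinase, with 3 libraries in each of the 4 groups. Cells grew with serum, TPC-1 in RPMI-1640 and LC-2/ad in that medium mixed with F-12. The labels name the lines but not the fusion, and nothing in them says that the libraries of a group were separate cultures. The p-values therefore measure only the spread between these libraries, which may be technical.

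RET is a receptor tyrosine kinase of neural crest, kidney and enteric nerve development. It does not bind its ligands alone: GDNF, NRTN (neurturin) and ARTN (artemin) each bind a GFRA protein, which is anchored to the outer face of the membrane, and the pair then brings RET molecules together. GDNF prefers GFRA1, NRTN prefers GFRA2 and ARTN prefers GFRA3. In lung and thyroid tumours, fusions place the RET kinase domain behind a coiled-coil region of another protein such as CCDC6, so that the kinase pairs without ligand and its transcript is driven by the promoter of the partner.

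RET lies on chromosome 10 at 43077027 to 43130351 on the forward strand and CCDC6 on the same chromosome at 59788763 to 59906656 on the reverse strand (GRCh38, GENCODE 29). The form of the fusion known in both lines joins exon 1 of CCDC6 to exon 12 of RET. The reference sequences that meet at that junction are shown because they set which part of each gene a fusion transcript would hold. They were read from GENCODE 29 transcripts and not from the libraries, with the 6 bases next to the junction in capitals. CCDC6 exon 1 is the first of 9 exons, and its last 30 bases are at chr10:59906122-59906151 on the reverse strand. RET exon 12 is one of 20, and its first 30 bases are at chr10:43116584-43116613 on the forward strand.
CCDC6 exon 1, 3′ end: cgcgacctgcgcaaagccagcgtgACCATC
RET exon 12, 5′ end: GAGGATccaaagtgggaattccctcggaag

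The CCDC6 part ends after 101 codons and the RET part starts after 712 codons, both with 0 bases left over, so the joined frame is kept. Exon 1 makes up 9.21% of the 5811-base CCDC6 transcript model. RET exons 12 to 20 make up 58.2% of the 5659-base RET model. The deposited values are TPM, an abundance corrected for transcript length and scaled to the same total in each library, with 1 value per gene and library. Such a value does not separate a fusion transcript from the full-length transcripts of either gene.

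The promoters of the receptor and of the fusion partner are shown because the first drives full-length RET and the second drives a fusion. Each is the stretch upstream of both the RefSeq and the GENCODE start, from RefSeq on GRCh38.p14, and capitals mark GC boxes (GGGCGG, or CCGCCC on the other strand). The RET stretch is chr10:43076819-43077026 on the forward strand (208 bases) and the CCDC6 stretch is chr10:59906657-59906806 on the reverse strand (150 bases).
RET promoter: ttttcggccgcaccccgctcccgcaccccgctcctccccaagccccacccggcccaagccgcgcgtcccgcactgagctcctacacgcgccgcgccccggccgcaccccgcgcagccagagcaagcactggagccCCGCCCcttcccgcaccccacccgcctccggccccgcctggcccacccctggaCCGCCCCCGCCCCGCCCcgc
CCDC6 promoter: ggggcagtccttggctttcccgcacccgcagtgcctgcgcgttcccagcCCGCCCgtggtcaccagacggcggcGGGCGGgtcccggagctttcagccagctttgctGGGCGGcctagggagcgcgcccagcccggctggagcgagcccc

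The RET stretch held 4 GC boxes, some of which adjoin or overlap, and 80.8% G and C. A GC box was present in 36.6% of the 34943 RefSeq windows taken over the same 208 positions, whose median G and C content was 57.2%. The CCDC6 stretch held 3 GC boxes and 75.3% G and C, where 25.7% of windows over its 150 positions held a GC box and the median was 56%. Neither held CCAAT or TATAAA on either strand, letters present in 28.6% and 7.86% of windows over the RET positions and in 18.9% and 6.33% over the CCDC6 positions. Each stretch ends at the GENCODE start, and the RefSeq start lies 42 bases further on for RET and 100 for CCDC6. The windows were placed by RefSeq starts, so the bases just before those starts were not read. A match of letters is a description of the sequence and no evidence of binding.

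LC-2/ad libraries had 13713 to 14336 genes at 1 TPM or more and TPC-1 libraries 12554 to 12967. The sequencing depth behind TPM is unknown. In TPC-1 the first principal component held 38.4% of the variance, and on it parent library 1 (-4.93) stood nearer to the treated libraries (8.44 to 19.5) than parent libraries 2 and 3 did (-23.3 and -17.7). The RET difference between the lines and the TPC-1 changes of GFRA1 and ARTN are therefore also given without it. Mitochondrial transcripts made up 9.72% to 9.82% of TPM in parent and 14% to 15% in treated LC-2/ad libraries, and 6.41% to 7.56% and 5.83% to 6.82% in those of TPC-1. LC-2/ad expressed the lung epithelial markers NKX2-1, NAPSA, EPCAM and KRT7, while the surfactant genes SFTPA1, SFTPB and SFTPC stayed under 1 TPM. TPC-1 also expressed KRT7 (a mean of 2034 TPM in parent cells, against 2441 TPM in LC-2/ad) and, at 4.33 TPM, EPCAM. The thyroid factors PAX8 and FOXE1 were expressed in both lines, with parent means of 190 and 9.11 TPM in TPC-1 and 14.8 and 11.6 TPM in LC-2/ad. Of the genes that define differentiated thyroid cells, TSHR and SLC5A5 were under 1 TPM in every library, and TG had means of 0.77 and 0.54 TPM in parent and treated TPC-1 cells, with 1.42 TPM in parent library 1. The neural crest markers SOX10 and S100B were under 1 TPM in both lines. The summed level of 7 blood, endothelial and fibroblast markers was 41.5 to 47.7 TPM in LC-2/ad parent and 45.6 to 51.3 TPM in LC-2/ad treated libraries. For TPC-1 it was 46.4 to 48 TPM and 44.8 to 56 TPM. Most of it came from COL1A1 (parent means of 31.3 TPM in LC-2/ad and 28.7 TPM in TPC-1) and CD68 (9 and 17.6 TPM). In LC-2/ad CDH5 had means of 2.07 and 3.63 TPM and LUM of 0.49 and 2.12 TPM in parent and treated cells. The group means of PTPRC, PECAM1 and DCN, which mark blood, endothelium and fibroblasts, were under 1 TPM. The part of these markers in the changes of RET and GFRA1 was not tested.

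**Figure D1:**
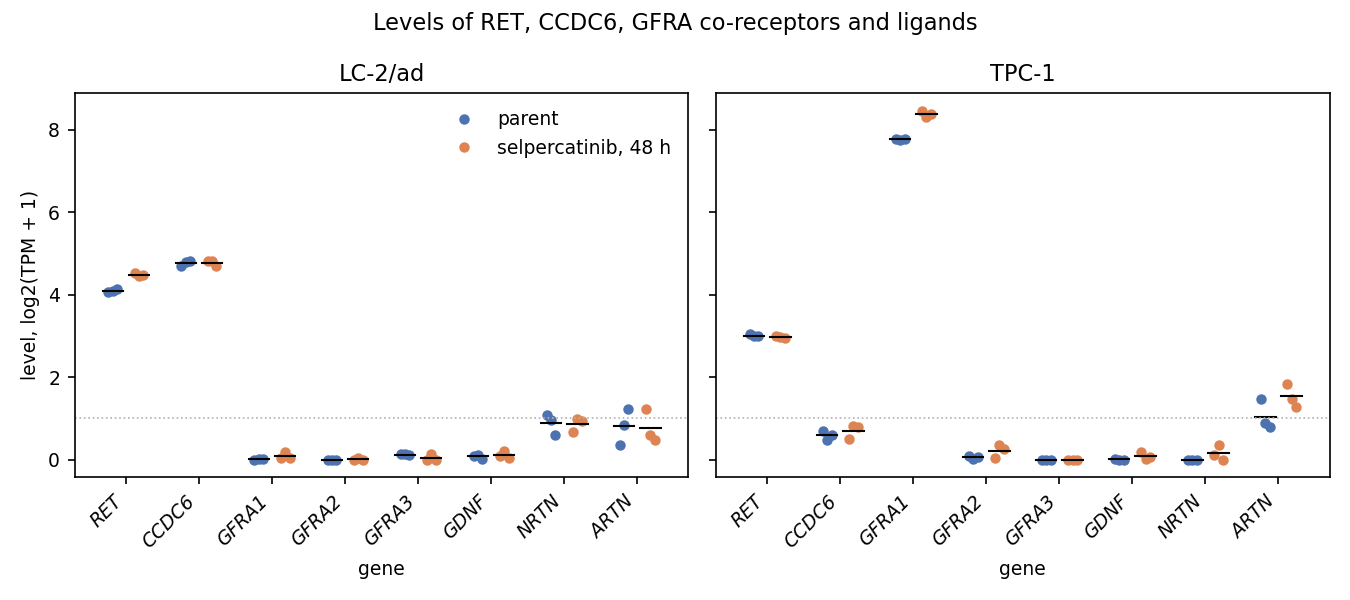
Level of each of the 8 genes in every library, as log2(TPM + 1), with LC-2/ad on the left and TPC-1 on the right. Points are libraries (blue parent, orange treated), black bars are group means and the dotted line is at 1 TPM; RET and CCDC6 stand above it in LC-2/ad, and GFRA1, RET and, in most libraries, ARTN in TPC-1.

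RET transcript rose after selpercatinib in LC-2/ad and did not pass the test in TPC-1, and the change differed between the lines. In LC-2/ad parent libraries RET stood at 15.7, 15.9 and 16.5 TPM, and in treated libraries at 22.2, 21 and 21.1 TPM. All 3 treated libraries lay above all 3 parent libraries, and the mean went from 16 ± 0.42 to 21.4 ± 0.68 TPM (SD, n = 3 each), a ratio of 1.34. In the limma model across all genes the change was 0.40 ± 0.06 (SE) on the log2(TPM + 1) scale, with a 95% interval of 0.25 to 0.54 and an adjusted p of 0.001. The median change over all genes tested in LC-2/ad was 0.07 on the same scale, and the median size of change without its sign was 0.31. Of these genes 55% passed the test, 30.6% of them all as higher, so a rise of this size was common there.

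The TPC-1 levels of RET were lower and closely spaced. Parent libraries had 7.28, 6.92 and 6.93 TPM, and treated libraries 7, 6.79 and 6.78 TPM. The groups overlapped, and the change was -0.03 ± 0.10 on the log2(TPM + 1) scale, with a 95% interval of -0.27 to 0.20 (limma, adjusted p = 0.889). The interval spans falls and rises, so it does not show that RET was unchanged. The test of the difference, TPC-1 minus LC-2/ad, gave -0.43 ± 0.10 with a 95% interval of -0.65 to -0.21 (limma, adjusted p = 0.00467), and without TPC-1 parent library 1 it gave -0.41 (adjusted p = 0.00994). Among 11996 genes tested in both lines, 36.6% passed this test.

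CCDC6, the scaffold-like coiled-coil protein whose promoter drives the fusion, was far apart in level between the lines. LC-2/ad parent libraries held 24.9, 26.7 and 27 TPM and treated libraries 27.2, 27 and 24.7 TPM. The LC-2/ad groups overlapped, and the change of 0.01 ± 0.06 had a 95% interval of -0.14 to 0.16 (limma, adjusted p = 0.939). In TPC-1 the parent libraries held 0.61, 0.38 and 0.51 TPM and the treated libraries 0.41, 0.75 and 0.72 TPM, all under 1 TPM and overlapping. CCDC6 therefore missed the filter of a mean of 1 TPM in TPC-1, and in a fit with no filter its change was 0.11 ± 0.11 (limma, adjusted p = 0.697). The tables of the lines are separate, so their levels are set side by side with no test.

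**Figure D2:**
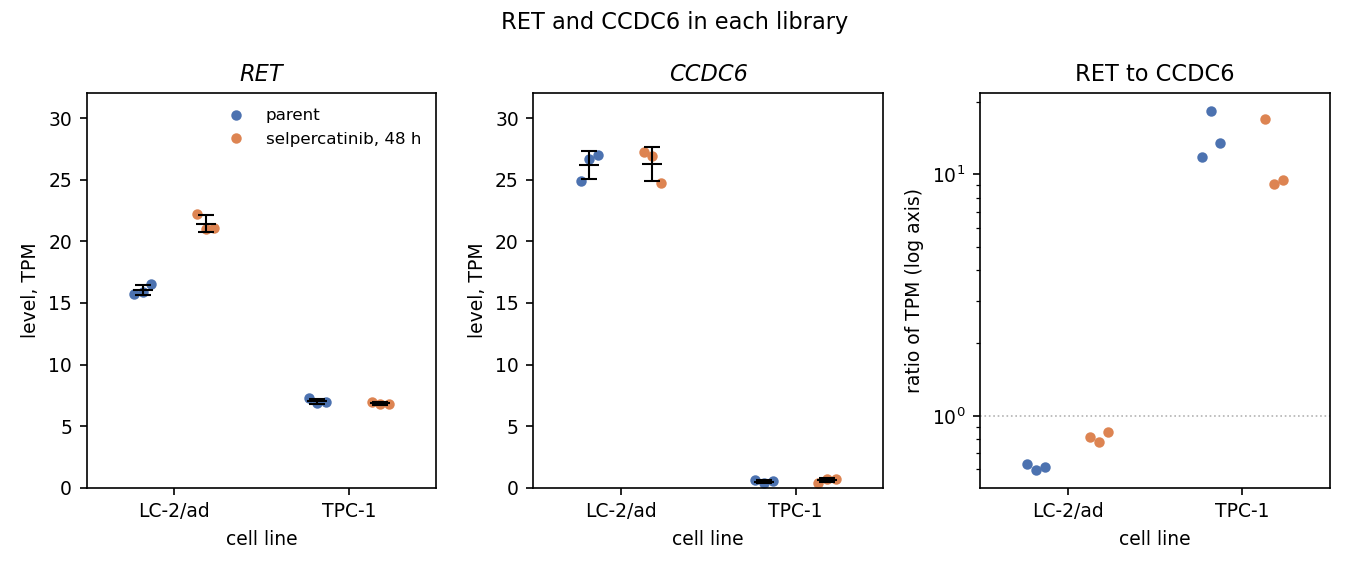
RET and CCDC6 in TPM (left and middle, axes from 0) and the ratio of RET to CCDC6 on a log axis (right), by cell line. Points are libraries, bars in the TPM panels are the mean and SD of 3 libraries, and the dotted line marks a ratio of 1; the LC-2/ad ratios lie between 0.597 and 0.855 and the TPC-1 ratios between 9.1 and 18.2.

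The order of the 2 genes was opposite in the lines. In LC-2/ad the ratio of RET to CCDC6 in TPM was 0.632, 0.597 and 0.613 in parent libraries and 0.816, 0.778 and 0.855 after treatment. The groups did not overlap, and the mean ratio went from 0.614 ± 0.018 to 0.816 ± 0.039 (SD, n = 3 each). The difference of mean log2 ratio was 0.41, with p = 0.1 in a two-sided exact permutation test, the smallest p that 3 against 3 libraries allow. In TPC-1 the ratio was 11.8, 18.2 and 13.5 in parent libraries and 16.9, 9.1 and 9.44 after treatment. Those groups overlapped, and the difference of -0.33 had p = 0.4 in the same exact permutation test. The TPC-1 ratio has CCDC6 values of 0.38 to 0.75 TPM as its denominator.

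Among 19745 protein-coding genes, 35.3% had a higher mean level than RET in parent LC-2/ad cells and 30.4% in treated ones. For TPC-1 these shares were 44.1% and 45.3%. CCDC6 was exceeded by 26.4% of protein-coding genes in LC-2/ad in either condition, and by 63.3% in TPC-1 parent cells and 62.5% after treatment. Both genes were thus of middle rank in LC-2/ad, and CCDC6 was among weakly listed genes in TPC-1.

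GFRA1, the preferred co-receptor of GDNF (chromosome 10, 116056925 to 116273467, reverse strand), was abundant in TPC-1 and rose further after treatment. Parent libraries held 219, 214 and 217 TPM and treated libraries 350, 318 and 333 TPM. Every treated library lay above every parent library, and the mean went from 217 ± 2.4 to 334 ± 16 TPM (SD, n = 3 each), a ratio of 1.54. The change was 0.62 ± 0.05 on the log2(TPM + 1) scale, with a 95% interval of 0.50 to 0.73 (limma, adjusted p = 0.000388). Without parent library 1 it was 0.62 (adjusted p = 0.00177). In TPC-1 3.75% of 12825 genes passed the test as higher and 1.21% as lower, and the median change of all genes tested was 0.05.

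In bulk RNA a different share of cells with GFRA1 and a different amount of GFRA1 RNA per cell cannot be told apart. The rank of GFRA1 went from 607 to 373 of 19745 protein-coding genes, so 3.07% of them had a higher level in parent cells and 1.88% after treatment. The ratio of GFRA1 to RET in TPC-1 was 30.1, 31 and 31.4 in parent libraries and 50, 46.8 and 49.2 in treated libraries, with no overlap and means of 30.8 ± 0.65 and 48.7 ± 1.7 (SD, n = 3 each).

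In LC-2/ad GFRA1 was almost absent from the libraries. It was listed at 0 in parent library 1 and at 0.0067 and 0.0065 TPM in the others, and at 0.031, 0.14 and 0.025 TPM after treatment. These values do not overlap, but all lie far under the filter of 1 TPM, and the fit with no filter gave a change of 0.08 ± 0.05 (limma, adjusted p = 0.295). The same fit gave a difference of 0.53 ± 0.08 between the lines for GFRA1 (limma, adjusted p = 0.000933), which covers a gene with almost no signal in one of them. At such values the log2(TPM + 1) scale holds the LC-2/ad change near 0, so the difference largely restates the TPC-1 change. It does not show that the response of GFRA1 differed between the lines.

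GFRA2, the co-receptor preferred by NRTN (chromosome 8, 21690403 to 21812357, reverse strand), stayed under 0.3 TPM in every library. In LC-2/ad it was listed at 0 in 5 libraries and at 0.022 TPM in treated library 2. In TPC-1 it had 0.069, 0.013 and 0.04 TPM in parent libraries and 0.022, 0.28 and 0.2 TPM in treated ones, which overlap. GFRA2 overlaps the pseudogene OR6R2P on the opposite strand, which reached 2.38 TPM, and whether strand was used in the quantification is not given in the sources used here, so these low values are uncertain.

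GFRA3, the co-receptor preferred by ARTN (chromosome 5, 138252379 to 138274671, reverse strand), was listed at 0 in all 6 TPC-1 libraries. In LC-2/ad it had 0.097, 0.098 and 0.072 TPM in parent libraries, and after treatment it was listed at 0 in libraries 1 and 3 and at 0.09 TPM in library 2. The processed pseudogene RPS27AP18 overlaps it on the same strand and was listed at 0 in all 12 libraries. GFRA1 was thus the one GFRA co-receptor of the 3 above 1 TPM in these libraries, and it was above it in TPC-1 alone.

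The ligands were at or under a few TPM in both lines. GDNF (chromosome 5, 37812677 to 37839686, reverse strand), the founding ligand of the family, had 0.065, 0.087 and 0.017 TPM in LC-2/ad parent libraries and 0.054, 0.15 and 0.027 TPM after treatment, with overlap. In TPC-1 it had 0.017 TPM in parent library 1, was listed at 0 in the other parent libraries, and had 0.13, 0.017 and 0.036 TPM after treatment. The TPC-1 values did not overlap, at levels under the filter by far, and the fit with no filter gave 0.08 ± 0.05 (limma, adjusted p = 0.543). The antisense gene GDNF-AS1 spans GDNF, so reads of the 2 could not be told apart if strand was not used.

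NRTN (chromosome 19, 5823802 to 5828324, forward strand), which supports enteric and parasympathetic neurons, was near 1 TPM in LC-2/ad. Its parent libraries had 1.12, 0.93 and 0.52 TPM and its treated libraries 0.58, 0.99 and 0.91 TPM, with overlap and a change of -0.02 ± 0.16 in the fit with no filter (limma, adjusted p = 0.94). In TPC-1 NRTN was listed at 0 in the 3 parent libraries and in treated library 3, and had 0.084 and 0.27 TPM in treated libraries 1 and 2. A fold against a group listed at 0 is not given.

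ARTN (chromosome 1, 43933320 to 43937241, forward strand), a survival factor of sensory and sympathetic neurons, had the widest spread between libraries of the 3 ligands. In TPC-1 parent libraries it had 1.75, 0.84 and 0.72 TPM and in treated libraries 2.59, 1.79 and 1.42 TPM. The groups overlapped through parent library 1. The change of 0.49 ± 0.24 had a 95% interval of -0.06 to 1.05 and did not pass the test (limma, adjusted p = 0.286), and without parent library 1 it was 0.70 (adjusted p = 0.119). In LC-2/ad ARTN had 0.27, 0.8 and 1.34 TPM in parent and 1.33, 0.51 and 0.39 TPM in treated libraries, and its mean missed the filter. The fit with no filter gave -0.05 ± 0.29 there (limma, adjusted p = 0.926).

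**Figure D3:**
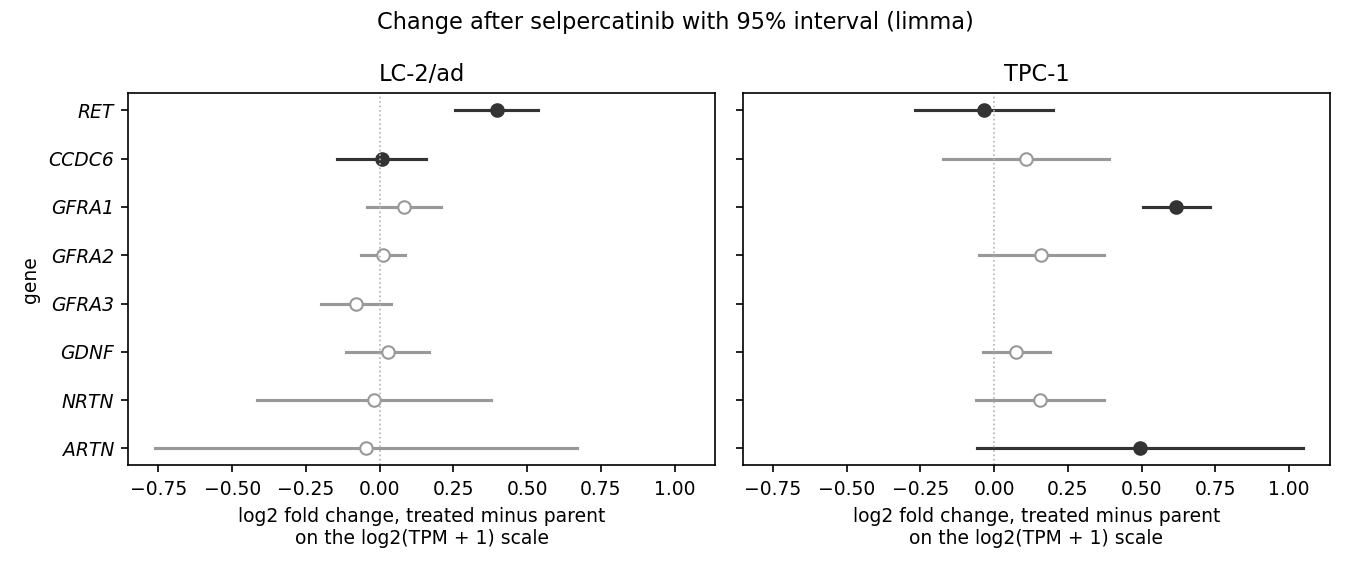
Change of each gene after treatment on the log2(TPM + 1) scale, with its 95% interval from limma, in LC-2/ad (left) and TPC-1 (right). Filled points passed the filter of a mean of 1 TPM, open grey points come from the fit with no filter, and GFRA3 has no point in TPC-1, where it was listed at 0; the intervals of RET in LC-2/ad (0.25 to 0.54) and GFRA1 in TPC-1 (0.50 to 0.73) lie above 0.

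Of the 8 genes, 2 passed the filter in LC-2/ad, where 1 (RET) was called, and 3 passed in TPC-1, where 1 (GFRA1) was called. In the background of all genes tested, 55% were called in LC-2/ad, against 4.96% for TPC-1, so 1 call of 2 in LC-2/ad is close to the background share. The split of all LC-2/ad calls between directions depended on scaling, with 4319 higher and 3451 lower as deposited, 3441 and 4318 after median-of-ratios scaling, and 5216 and 2833 with mitochondrial genes removed. RET was called as higher under each of these scalings, with changes of 0.40, 0.31 and 0.47, the last with the mitochondrial share taken out.

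The pairing of ligands with their preferred co-receptors was read library by library. GDNF with GFRA1, NRTN with GFRA2, and ARTN with GFRA3 never both reached 1 TPM in any of the 6 libraries of either line. In TPC-1 GFRA1 was at 214 to 350 TPM while GDNF did not exceed 0.13 TPM. In LC-2/ad NRTN and ARTN reached 1.12 and 1.34 TPM while GFRA1, GFRA2 and GFRA3 did not exceed 0.14 TPM. RNA levels in the culture do not show protein or ligand supplied by serum.

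The other members of the family showed 1 gene of high level. GDF15, a stress-induced hormone of the wider family whose receptor is GFRAL with RET, had 94.3, 97.5 and 99.1 TPM in LC-2/ad parent libraries and 16, 16.7 and 14.7 TPM after treatment. It fell by 2.54 ± 0.06 on the log2(TPM + 1) scale (limma, adjusted p = 2.036e-07), with no overlap. In TPC-1 GDF15 had 1.65, 1.83 and 1.74 TPM in parent and 1.04, 0.83 and 0.55 TPM in treated libraries. The TPC-1 groups did not overlap, but the change of -0.61 ± 0.19 did not pass the test (limma, adjusted p = 0.102).

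GFRAL was listed at 0 in all libraries but LC-2/ad parent library 1, with 0.035 TPM. PSPN (persephin), whose co-receptor is GFRA4, lay between 0.44 and 0.98 TPM in LC-2/ad and missed the filter in both lines. In TPC-1 it had 0.99, 0.91 and 1.05 TPM in parent and 0.63, 0.82 and 0.84 TPM in treated libraries, which do not overlap. GFRA4 was listed at 0 in all TPC-1 libraries and did not exceed 0.18 TPM in LC-2/ad. Neither of these pairs, PSPN with GFRA4 or GDF15 with GFRAL, had both genes at 1 TPM in any library.

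Membrane proteins known to modify RET or its ligands moved in LC-2/ad. Of 5 listed (NCAM1, SORL1, SDC3, PTPRF and GAS1), SORL1, SDC3 and PTPRF were tested in LC-2/ad and NCAM1, SDC3 and PTPRF in TPC-1. All 3 rose in LC-2/ad, where 30.6% of all genes tested did, and none of the 3 passed in TPC-1, where 4.96% of all genes did. SORL1, a sorting receptor that takes up GDNF and GFRA1, went from 50.6, 49.1 and 43.9 TPM to 92.5, 101 and 88.4 TPM, a change of 0.96 ± 0.07 (limma, adjusted p = 2.278e-05). PTPRF, a receptor phosphatase that acts on RET, went from 96.7 to 103 TPM in parent libraries to 150 to 156 TPM, a change of 0.60 ± 0.04. SDC3, a heparan sulphate proteoglycan that binds GDNF, changed by 0.54 ± 0.07. In TPC-1 SDC3 and PTPRF were expressed at 46.6 to 50.4 and 51.3 to 61 TPM, and SORL1 was under 1 TPM in every library. NCAM1, a cell adhesion molecule that can serve as another receptor of GDNF with GFRA1, had 15.1, 12.9 and 12.9 TPM in parent and 12.7, 11 and 12.9 TPM in treated TPC-1 libraries, a change of -0.15 ± 0.11 (limma, adjusted p = 0.462). The median change of the 3 genes in TPC-1 was -0.06.

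Adaptors and effectors that dock on active RET or act next to it moved in both directions in LC-2/ad. Of 32 listed, 29 were tested, of which 12 rose, 5 fell and 12 did not pass, a called share of 58.6% against 55% of all genes. Their median change was 0.30 against 0.07 for all genes tested. SHC2, a docking adaptor, went from 0.56 to 0.79 TPM in parent libraries to 3.83 to 5.09 TPM, a change of 1.65 ± 0.15. DOK4, an adaptor of the insulin receptor substrate type that binds RET, changed by 1.32 ± 0.10, from 2.51 to 2.76 TPM in parent libraries to 7.7 to 8.77 TPM. PLCG1, the phospholipase that docks on phosphorylated RET, changed by 0.77 ± 0.15, and CBLB, a ubiquitin ligase of receptor kinases, by 0.66 ± 0.09. The 5 that fell, named after their values were seen, were PTPN11, CBLC, PDLIM7, CBL and GRB2, by 0.41, 0.36, 0.34, 0.26 and 0.21 on the log2(TPM + 1) scale.

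In TPC-1, 25 of these adaptors and effectors were tested and 1 rose, a called share of 4% against 4.96% of all genes, with a median change of 0.17 against 0.05. It was RAP1GAP, which switches off the small GTPase Rap, with 15.6, 14.4 and 13.9 TPM in parent libraries and 23.7, 20.9 and 24.5 TPM after treatment. Its change was 0.62 ± 0.09 (limma, adjusted p = 0.00634). RAP1GAP was also called as higher in LC-2/ad, with a change of 0.35 ± 0.10 (limma, adjusted p = 0.0224). The difference between the lines did not pass for this gene (limma, adjusted p = 0.125).

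Genes known to respond to RET in the ureteric bud of the kidney fell in LC-2/ad, and 2 of them also fell in TPC-1. This list of 9 had 7 tested members for LC-2/ad; 6 of them fell and none rose, where 24.4% of all genes fell, and its median change was -1.38 on the log2(TPM + 1) scale. DUSP6, a phosphatase of ERK and a readout of ERK signalling, went from 162, 160 and 156 TPM to 14.6, 13.2 and 10.9 TPM, a change of -3.54 ± 0.09. The ETS transcription factors ETV4 and ETV5 changed by -2.94 ± 0.11 and -2.55 ± 0.09, and the transcription factor MYB by -1.38 ± 0.13. MET and SPRY1 also fell.

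In TPC-1 6 of the list were tested, with a median change of -0.62, and 2 fell, where 1.21% of all genes did. ETV4 had 4.8, 5.18 and 5.54 TPM in parent libraries and 1.41, 1.7 and 2.06 TPM after treatment, a change of -1.19 ± 0.15 (limma, adjusted p = 0.0034). DUSP6 had 13.6, 11.3 and 13 TPM and then 5.69, 7.42 and 4.62 TPM, a change of -0.999 ± 0.16 (limma, adjusted p = 0.0082), which no longer passed with no filter (adjusted p = 0.0641). ETV5 had a change of -0.68 ± 0.20 that did not pass (limma, adjusted p = 0.0883).

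Other genes known as RET fusion partners were compared with CCDC6, since the promoter of the partner drives the transcript of a fusion. The values per gene do not measure the level of such a transcript. Of 16 listed, 15 were in the tables and all were tested in both lines. In LC-2/ad 8 rose, 1 fell and 6 did not pass, a called share of 60% against 55% of all genes, with a median change of 0.18 against 0.07. ERC1, a scaffold of the presynaptic active zone and cell cortex, changed by 0.64 ± 0.11, and CUX1, a homeobox transcription factor, by 0.57 ± 0.05. AKAP13, an anchor of protein kinase A, changed by 0.53 ± 0.07 and HOOK3, a linker to microtubules, by 0.41 ± 0.09. The one that fell was KIF5B, a kinesin and the most common partner in lung cancer, with a change of -0.25 ± 0.06, named after its values were seen. In TPC-1 none of the 15 passed the test, where 4.96% of all genes did, with changes between -0.16 and 0.26 and a median of 0.05.

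**Figure D4:**
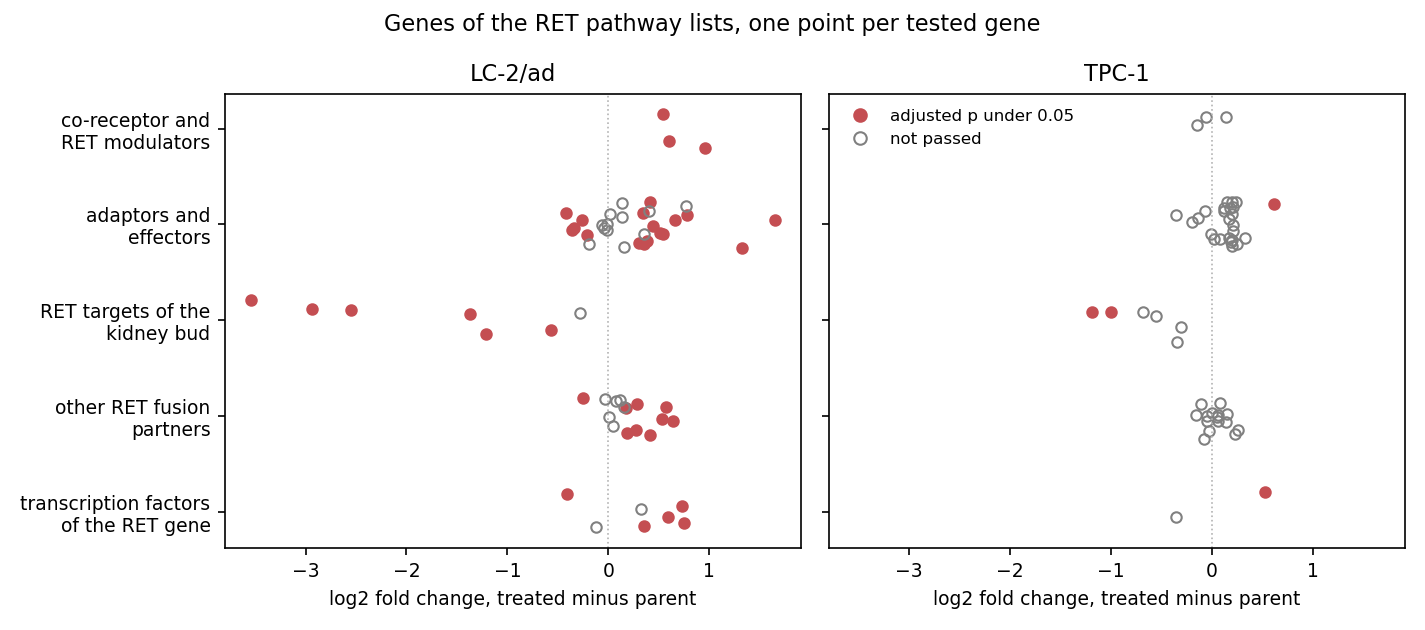
Change after treatment on the log2(TPM + 1) scale for the tested genes of 5 lists related to RET, in LC-2/ad (left) and TPC-1 (right). Each point is 1 gene, filled where the adjusted p of limma was under 0.05; 6 of 7 RET targets of the kidney bud lie below 0 as filled points in LC-2/ad and 2 of 6 in TPC-1.

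Transcription factors known to act on the RET gene were mostly low in TPC-1. Of 12 listed, LC-2/ad had 7 at testable levels (4 rose and 1 fell) and TPC-1 had 2 (1 rose). Of all genes tested, 30.6% rose and 24.4% fell in LC-2/ad, and 3.75% rose in TPC-1. RARB, a retinoic acid receptor, had a change of 0.75 ± 0.14 and HOXB5, a homeobox factor of enteric neurons, of 0.59 ± 0.09. GATA3 had a change of 0.73 ± 0.23 (limma, adjusted p = 0.0286), which did not pass with no filter (adjusted p = 0.0613), without parent library 2 (0.0867) or 3 (0.0719), or without treated library 3 (0.0817). The fourth was NKX2-1, the lineage factor of lung and thyroid, named after its values were seen, with 110, 114 and 105 TPM in parent and 141, 141 and 140 TPM in treated LC-2/ad libraries and a change of 0.35 ± 0.04. NKX2-1 and HOXB5 were listed at 0 in all TPC-1 libraries.

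MITF, the melanocyte lineage factor, moved in opposite directions. It fell in LC-2/ad, from 10.5, 8.96 and 8.45 TPM to 6.72, 6.53 and 6.94 TPM, a change of -0.41 ± 0.10 (limma, adjusted p = 0.00952). In TPC-1 it went from 25.3, 23.6 and 25.4 TPM to 33, 34.3 and 41.8 TPM, a change of 0.53 ± 0.10 (limma, adjusted p = 0.0168). The TPC-1 call was lost with no filter (adjusted p = 0.0757), with no variance trend (0.0555), and without parent library 2 (0.0721) or 3 (0.0626). The difference between the lines was 0.94 ± 0.14 (limma, adjusted p = 0.000207).

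The genes that flank RET and CCDC6 on chromosome 10 were read to see whether the level of CCDC6 was shared by its surroundings. Of the 5 protein-coding genes on each side of RET, 7 of 10 reached a mean of 1 TPM in parent cells of each line. Of those around CCDC6, 5 of 10 did in LC-2/ad and 4 of 10 in TPC-1. SLC16A9, a gene of the monocarboxylate transporter family near CCDC6, was chosen after its values were seen. It went from 22.3 to 25.3 TPM in parent LC-2/ad libraries to 37.6 to 39.8 TPM, and was listed at 0 in every TPC-1 library. Between it and CCDC6 lies MRLN, with parent means of 0.51 ± 0.12 TPM in LC-2/ad and 0.74 ± 0.34 TPM in TPC-1 (SD, n = 3 each). ANK3, the next gene on the other side and a membrane skeleton adaptor, had a mean of 15.8 ± 0.96 TPM in parent LC-2/ad and 1.46 ± 0.33 TPM in parent TPC-1 cells (SD, n = 3 each). BICC1, an RNA-binding protein gene at the edge of the window, was the other way round, with 4.26 ± 0.26 and 90.9 ± 4.5 TPM.

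The tables of the lines are separate and their levels were not tested against each other, so these levels are descriptions. CDK1, the mitotic kinase, lies between ANK3 and RHOBTB1 and had 94.9 ± 6.3 TPM in parent LC-2/ad and 80.9 ± 4 TPM in parent TPC-1 cells. The neighbours of CCDC6 therefore included genes higher in LC-2/ad, a gene higher in TPC-1 and genes of similar level.

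**Figure D5:**
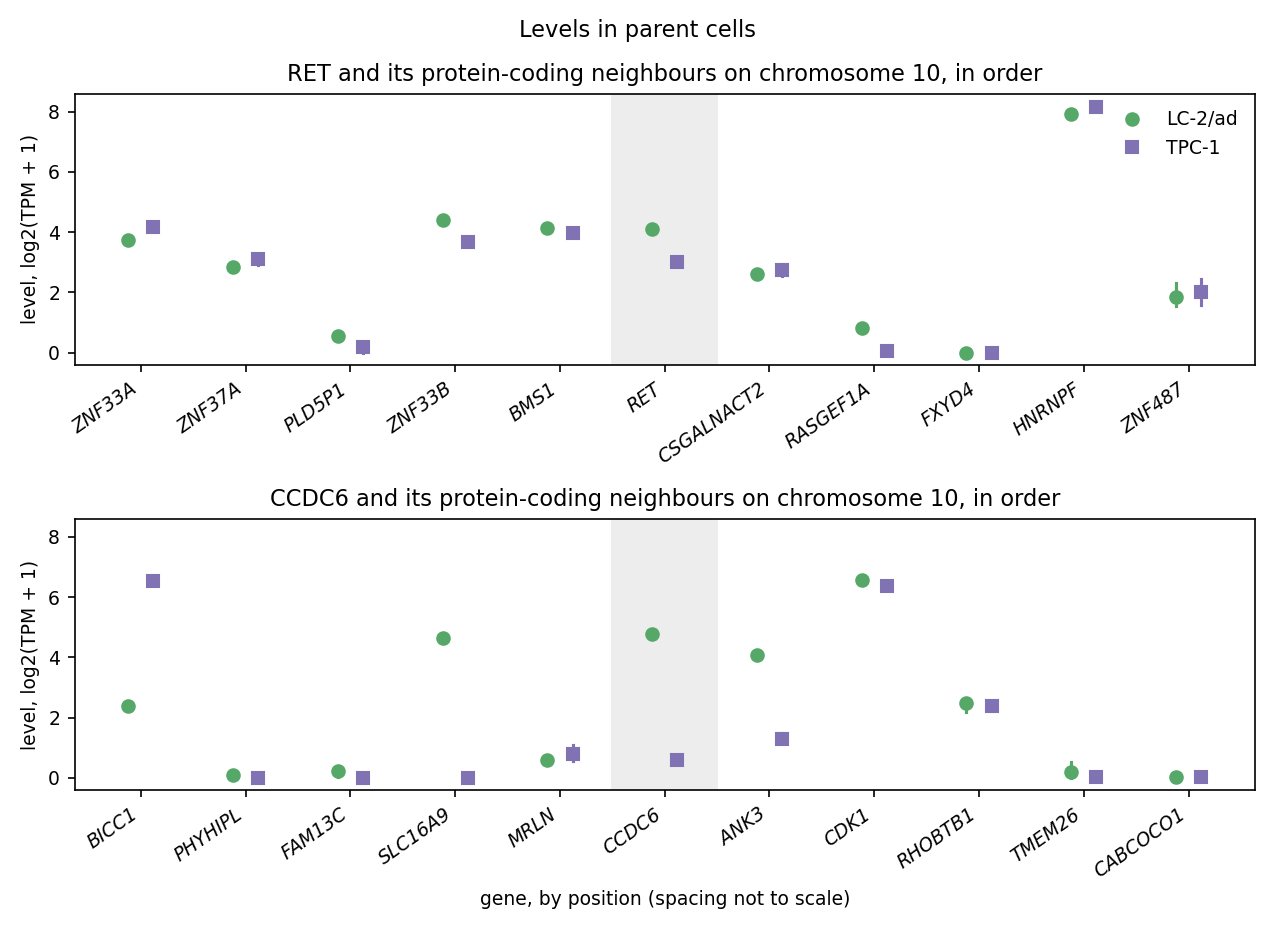
Levels in parent cells, as log2(TPM + 1), of RET (top) and CCDC6 (bottom) with the 5 protein-coding genes on each side, in chromosome order and not to scale. Points are means of 3 libraries and vertical lines their range, with green circles for LC-2/ad and purple squares for TPC-1; CCDC6, SLC16A9 and ANK3 lie higher in LC-2/ad and BICC1 lies higher in TPC-1.

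After treatment 7 of 13 tested neighbours rose and 3 fell in LC-2/ad, a called share of 76.9% against 55% of all genes. In TPC-1 2 of 11 rose, or 18.2%, where 3.75% of all genes rose. CDK1 changed by -1.86 ± 0.07 and BICC1 by 1.08 ± 0.09 in LC-2/ad, and the others that fell, named after their values were seen, were BMS1 and HNRNPF. RHOBTB1 changed by 0.79 ± 0.14 in LC-2/ad and by 0.99 ± 0.15 in TPC-1 (limma, adjusted p = 0.00201 and 0.00681), the latter not passing with no filter (adjusted p = 0.0558). ANK3 rose in LC-2/ad, by 0.51 ± 0.07 (limma, adjusted p = 0.000496), and had a change of 0.81 ± 0.17 in TPC-1 (limma, adjusted p = 0.0325). The TPC-1 call of ANK3 was lost with no filter (adjusted p = 0.0909), with the replicate number as a block (0.0674), and without each library except parent library 1 (0.0646 to 0.124).

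The genes whose pattern was most like that of RET were sought among 8797 protein-coding genes with a mean of 5 TPM in each line, over the 12 libraries after centring within each line. LBH, a transcription cofactor of development, had a Pearson r of 0.993, SCRN2 of 0.988 and PBXIP1, which binds PBX homeobox proteins, of 0.988. LBH had mean levels of 6.92 and 33.3 TPM in parent and treated LC-2/ad cells and of 11.5 and 10.5 TPM in TPC-1, so its rise in LC-2/ad was larger than that of RET. For CCDC6, among 8798 genes, the highest values were 0.920 for LIG3, a DNA ligase, 0.870 for TIMM10B and 0.850 for PRKCH. The 12 libraries share their cell line and treatment, and these correlations are descriptions given without a test.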

How the data were processed

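RNA from 12 libraries (4 groups of 3) was analysed from a separate table for each cell line. The deposited values are TPM per gene, computed by the authors. Salmon, bcl2fastq 2.20.0 and the GRCh38 build appear, without roles, in the submitters' processing notes. The annotation, the summing of transcripts to genes, strand use and filters are not given in the sources used here. No column was left out (0 unused). Groups came from the labels.

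Of 37247 genes, 34436 had a symbol. Coordinates (GRCh38) are those of GENCODE 29, which held 34620 of the genes. Within each line, log2(TPM + 1) was compared with limma 3.58.1 (in R 4.3.3 with data.table, version 1.17.8) using a variance trend; genes under a mean of 1 TPM were left out. Tests were two-sided, with Benjamini-Hochberg adjustment over all genes tested and a threshold of 0.05. A second model of all 12 libraries tested the fold change in TPC-1 minus that in LC-2/ad, for genes at 1 TPM in each line. Single values had an exact permutation test. The fit was tested on simulated data with 200 changed genes. Python 3.11.15, pandas 2.3.3, numpy 2.4.6, scipy 1.17.1 and matplotlib 3.10.9 were used.

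The members and lists were chosen with earlier results of these data known. The 8 members were all named. From each list up to 4 called genes per line with the largest change were named, up to 3 for the 5 neighbours on each side of RET and CCDC6, and 3 by likeness. Promoter sequences are from RefSeq (GRCh38.p14) and matched both genes for which they are printed. Junction sequences and overlaps are from GENCODE 29. Some listed genes are not reported here. Alternatives are given in the closing section.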

Additional observations from a re-analysis of the deposited data

Results flagged for a closer look

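Each result here was picked out because the test of the difference between the lines itself passed (limma, 12 libraries, adjusted p under 0.05), where 36.6% of all genes tested did. All values are the log2 fold change in TPC-1 minus that in LC-2/ad, with the SE. For RET the difference was -0.43 ± 0.10, and RET was higher after treatment in all 3 treated LC-2/ad libraries. Among the kidney bud targets it was 2.54 ± 0.19 for DUSP6, 1.75 ± 0.17 for ETV4 and 1.87 ± 0.24 for ETV5, each of which had the more negative change in LC-2/ad. Of 6 such targets tested, 4 passed, all above 0, the other being MET with 0.91 ± 0.11. GDF15 had a difference of 1.93 ± 0.15, also with the more negative change in LC-2/ad.

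Of the modulators and adaptors, PTPRF had -0.47 ± 0.07, SDC3 had -0.60 ± 0.09 and DOK4 had -1.13 ± 0.12. Among 25 adaptors and effectors tested for the difference, 4 passed above 0 and 3 below. That is 28%, against 36.6% of all genes. Those above 0 were PTPN11, PDLIM7, GRB2 and CBL. Of the other fusion partners, ERC1 had -0.81 ± 0.15, CUX1 had -0.62 ± 0.08 and AKAP13 had -0.49 ± 0.12. KIF5B went the other way, with 0.33 ± 0.10. Among the 15 partners tested, 1 passed above 0, 3 passed below and 11 did not pass, a called share of 26.7%. MITF had 0.94 ± 0.14, with calls of opposite direction in the lines, though its TPC-1 call was lost under several alternatives, as given above. Of the neighbours of CCDC6, BICC1 had -1.07 ± 0.11 and CDK1 had 1.97 ± 0.11.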

How the results depend on the processing

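The choices varied, 1 at a time, were the pseudocount (0.1 or 5), the filter (none, or a mean of 5 TPM), the scaling (median-of-ratios, or mitochondrial genes taken out), the variance trend, the replicate block and the libraries entering. RET in LC-2/ad, GFRA1 in TPC-1 and the RET difference between the lines passed the test under every one of these that was run. CCDC6 in LC-2/ad, which did not pass, changed sign to -0.085 with median-of-ratios scaling and ranged from -0.028 to 0.049 with a library left out. The 636 genes called in TPC-1 became 272 with no filter, 356 with no variance trend and 292 to 815 with a library left out. The counts were 337 without parent library 2, 292 without parent library 3, and 335 and 339 without treated libraries 1 and 2. With a library left out, a group of 2 remained. The cause was not tested. TPC-1 calls were 481 higher and 155 lower as deposited and 420 and 254 after median-of-ratios scaling, and the difference between the lines had 2660 above and 1733 below 0, or 2066 and 2302 with mitochondrial genes removed. ARTN could not be tested at a mean of 5 TPM. Of the other named genes, 681 recomputed values kept their direction and side of the threshold, 17 lost a call and 1 gained one, GDF15 in TPC-1 with no variance trend (adjusted p = 0.0442).

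Same-numbered libraries did not pair, since the correlation of their deviations was -0.048 to -0.015 in LC-2/ad and -0.026 to 0.054 in TPC-1. With the replicate number as a block 7357 genes were called in LC-2/ad, 542 in TPC-1 and 4227 for the difference. In that fit the adjusted p was 0.00573 for RET in LC-2/ad, 0.00191 for GFRA1 in TPC-1 and 0.0185 for the RET difference. Since TPM keeps no depth, values under about 1 TPM carry an unknown counting error.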
